A study of Rattus norvegicus with 9 samples.

Results

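The transporters that move bile acids and related anions into and out of hepatocytes were followed in bulk liver RNA from 9 rats. They comprise 10 genes, chosen by symbol from the 32883 genes listed in the deposited tables, and every one of them has a row. For the description they were divided by the membrane at which they work into 4 genes of sinusoidal uptake (Slc10a1, Slco1a1, Slco1a4 and Slco1b2), 3 of canalicular export (Abcb11, Abcb4 and Abcc2) and 3 of basolateral export (Abcc3, Abcc4 and Slc51b). The choice used no measured value of the 9 livers, although earlier results of the same data were known when it was made.

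The study tested UTOpiA, an extracorporeal circuit for liver failure that passes whole blood through a granulocyte and monocyte adsorption (GMA) column and then over hepatocyte-like cell organoids made from human induced pluripotent stem cells. The organoids were enclosed in alginate. Acute-on-chronic liver failure (ACLF) was produced in male Sprague-Dawley rats aged 8 to 11 weeks by ligation of the bile duct (BDL) for 21 days and then lipopolysaccharide (LPS) at 0.25 mg/kg. Circulation began 1 h after LPS and ran for 2 h. The UTOpiA group (n = 3) had the full circuit, the Empty group (n = 3) was connected to a circuit holding neither cells nor a GMA column, and both carried BDL and LPS. Their livers were collected 24 h after LPS from surviving animals. The Normal group (n = 3) came from rats labelled only as normal, so a difference between Empty and Normal livers cannot be told apart into BDL, LPS and the circuit. Because only survivors were sampled, the ACLF groups describe the animals that lived to that time. The bile duct stayed ligated in both ACLF groups, and each of the 9 libraries was 1 liver, labelled as a biological replicate.

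Bile acids return to the liver in portal blood and enter hepatocytes at the sinusoidal membrane, mainly through the sodium-dependent transporter NTCP, encoded by Slc10a1, and through sodium-independent organic anion transporting polypeptides (OATPs), encoded by Slco genes. At the canalicular membrane the bile salt export pump BSEP (Abcb11) drives bile acids into bile, MRP2 (Abcc2) exports conjugates such as bilirubin glucuronides, and the phospholipid floppase encoded by Abcb4 supplies the phosphatidylcholine that shields the biliary epithelium. MRP3 (Abcc3), MRP4 (Abcc4) and the OSTα/OSTβ heteromer (Slc51a and Slc51b) return bile acids and conjugates across the basolateral membrane to the blood.

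The windows before the start sites are shown because Slc10a1, Slco1b2 and Abcc2 held both AGGTCA and GTTAAT, 2 of the 3 short motifs searched for, and because Slco1a1 and Slco1a4 were the most alike of the transporter windows. RefSeq (GRCr8) gave a window of 250 bases upstream of the start for 8 of the 10 genes, with none for Abcb11 and Abcc3. Capitals mark AGGTCA, the hexamer that many nuclear receptors bind, and GTTAAT, a core recognised by HNF1 factors, each on either strand, so that the reverse strand reads TGACCT and ATTAAC. The windows lie at chr6:106357945-106358194 on the minus strand for Slc10a1, chr4:176282334-176282583 on the plus strand for Slco1b2, chr1:252613625-252613874 on the plus strand for Abcc2, chr4:176681993-176682242 on the minus strand for Slco1a1 and chr4:176495847-176496096 on the minus strand for Slco1a4.
Slc10a1: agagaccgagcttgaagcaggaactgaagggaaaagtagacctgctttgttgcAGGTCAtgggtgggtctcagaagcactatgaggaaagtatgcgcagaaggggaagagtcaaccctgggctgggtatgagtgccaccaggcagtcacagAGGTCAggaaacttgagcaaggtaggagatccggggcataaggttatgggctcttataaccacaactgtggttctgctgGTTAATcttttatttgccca
Slco1b2: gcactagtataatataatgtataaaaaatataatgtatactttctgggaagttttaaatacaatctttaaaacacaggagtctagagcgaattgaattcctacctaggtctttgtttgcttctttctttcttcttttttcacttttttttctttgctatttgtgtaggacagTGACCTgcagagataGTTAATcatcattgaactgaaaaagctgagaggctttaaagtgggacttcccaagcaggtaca
Abcc2: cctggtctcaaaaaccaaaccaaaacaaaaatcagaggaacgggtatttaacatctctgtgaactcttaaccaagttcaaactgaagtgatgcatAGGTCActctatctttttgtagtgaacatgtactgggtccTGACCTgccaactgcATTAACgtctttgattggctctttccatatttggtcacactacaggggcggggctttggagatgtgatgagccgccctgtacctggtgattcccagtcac
Slco1a1: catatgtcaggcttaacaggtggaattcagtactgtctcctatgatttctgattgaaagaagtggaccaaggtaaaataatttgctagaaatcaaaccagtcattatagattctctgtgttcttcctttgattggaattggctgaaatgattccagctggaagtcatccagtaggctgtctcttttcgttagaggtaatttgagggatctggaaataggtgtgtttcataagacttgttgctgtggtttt
Slco1a4: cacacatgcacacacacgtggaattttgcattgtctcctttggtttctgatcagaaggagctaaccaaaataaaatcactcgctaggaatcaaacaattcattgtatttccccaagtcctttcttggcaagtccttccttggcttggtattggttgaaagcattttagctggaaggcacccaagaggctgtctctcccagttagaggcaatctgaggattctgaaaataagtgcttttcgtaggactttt

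AGGTCA stood 197 to 192 and 99 to 94 bases before the start of Slc10a1, 155 to 150 bases before that of Abcc2 and 132 to 127 bases before that of Slc51b, and on the reverse strand 78 to 73 bases before that of Slco1b2 and 115 to 110 bases before that of Abcc2. GTTAAT stood 20 to 15 bases before the start of Slc10a1, 63 to 58 bases before that of Slco1b2 and, reversed, 100 to 95 bases before that of Abcc2. The windows of Slco1a1, Slco1a4, Abcb4 and Abcc4 held neither, and none of the 8 held the antioxidant response element core TGACNNNGC. Of all 33469 RefSeq windows of this length, 14.1% held AGGTCA, 6.45% held GTTAAT and 10.1% held TGACNNNGC, with no overlap between the matches in these genes. Slco1a1 and Slco1a4 shared 176 of 235 aligned bases (74.9%), whereas the other 27 pairs shared between 47.2% and 63.8%. These are matches of letters only.

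Between 14241172 and 15205300 reads were counted on genes in Normal livers, between 15775439 and 17321677 in Empty livers and between 14494047 and 16146265 in UTOpiA livers. Levels are given in TPM, which the authors scaled by gene length, so that genes can be set beside each other. Differences were tested on the deposited counts with edgeR over the 14089 genes that passed the filter on low counts, and a gene was called at an adjusted p under 0.05 with a fold change above 2. The 2 scales differ: the TMM factors used by edgeR ranged over 0.80 to 0.83 (Normal) and 0.86 to 1.32 (both ACLF groups), so its log2 fold changes against Normal livers lie below the ratios of mean TPM. In bulk RNA, fewer hepatocytes and less transporter RNA per hepatocyte cannot be told apart. The summed TPM of 10 hepatocyte markers was 151000 to 163000 in Normal livers, 35500, 59500 and 32700 in Empty livers 1 to 3, and 59400, 38300 and 51300 in UTOpiA livers 1 to 3, with 0 of the 10 at 0 counts in a group. Without albumin (Alb), which alone stood at 114700 to 127200 TPM in Normal and 12840 to 33610 TPM in ACLF livers, the other 9 markers summed to 34900 to 37300 TPM in Normal, 19900 to 25800 in Empty and 24400 to 29500 in UTOpiA livers. Of the 10, 1 was called higher, 5 lower and 4 neither in Empty against Normal livers (median log2 fold change -0.96), where 20.7% of all genes were called higher and 11.1% lower. In UTOpiA livers 1 was higher, 4 lower and 5 neither (median -0.76), against 18.2% and 6.81% of all genes. Markers of cholangiocytes, the epithelium of the bile ducts, summed to 27.1 to 37.0 TPM in Normal, 427 to 925 in Empty and 191 to 620 in UTOpiA livers. Markers of stellate cells and fibroblasts (8 of 8 called higher in each ACLF group than in Normal livers, beside the same 20.7% and 18.2% of all genes) summed to 92.4 to 106, 604 to 868 and 435 to 821 TPM in the same order of groups, and those of macrophages to 299 to 355, 759 to 1180 and 455 to 1070 TPM. Neutrophil markers summed to 2.93 to 5.90, 187 to 1120 and 177 to 516 TPM, mostly from S100a8 and S100a9, while Mpo and Elane failed the count filter. Endothelial markers summed to 83.5 to 93.2, 66.4 to 139 and 72.5 to 99.1 TPM but moved in both directions. Of 6 tested, 1 was called higher and 1 lower in each ACLF group than in Normal livers. All genes gave 20.7% and 11.1% in Empty and 18.2% and 6.81% in UTOpiA livers. Kdr was lower in both, Cdh5 higher in Empty and Vwf higher in UTOpiA livers. These 7 genes were named after their values were seen. Erythroid and platelet markers summed to 101 to 268 TPM in Normal, 2190 to 3230 in Empty and 750 to 1190 in UTOpiA livers, a sum made up almost wholly of the haemoglobin genes Hba-a1 and Hbb. The Empty and UTOpiA sums did not overlap, although 0 of the 5 markers tested were called between them, and the platelet gene Itga2b was called lower in Empty than in Normal livers (-1.07). The part of these cell types in the results below was not tested.

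In Normal livers the uptake transporters, Abcb11 and Abcc2 were abundant and the basolateral exporters scarce. Slc10a1 led at 499.7 ± 29.6 TPM (SD, n = 3), above Slco1b2 at 323 ± 27.8, with no overlap. The next places were taken by Abcb11 at 266 ± 51.4, Abcc2 at 223 ± 53.6, Slco1a1 at 221 ± 32.7 and Slco1a4 at 193 ± 33.5 TPM, and from Slco1b2 down to Slco1a4 each overlapped its neighbour. The row named Abcb4 followed at 9.31 ± 0.80 TPM, then Abcc4 at 4.94 ± 0.55 and Abcc3 at 3.12 ± 1.03, each apart from the next. In Empty livers Abcb11 came first at 147 ± 85.6 TPM and in UTOpiA livers Slco1b2 came first at 289 ± 77.0 TPM. From the first place down to Abcc3, neighbours overlapped in both ACLF groups, and Abcc4 lay below Abcc3 without overlap in each.

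**Figure D1:**
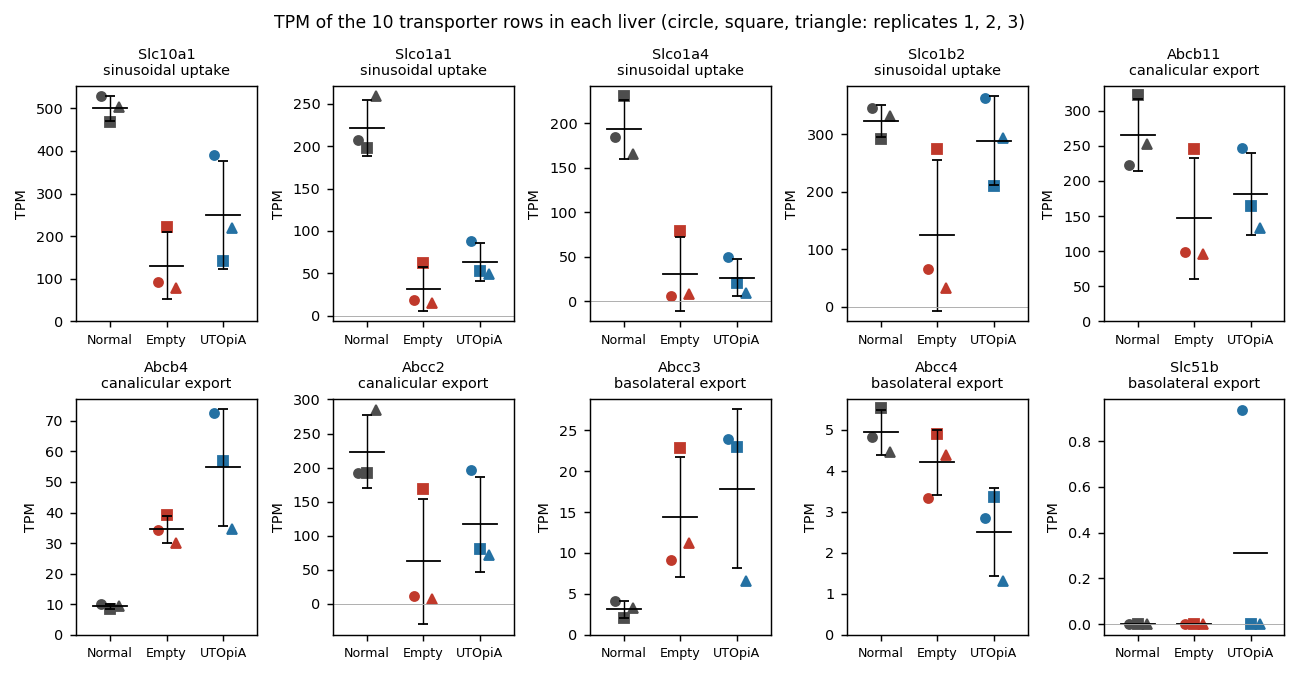
TPM (linear vertical axes, a separate scale for each panel) of the 10 rows in each liver, with circles, squares and triangles for replicates 1, 2 and 3, a horizontal bar for the group mean and a vertical bar for 1 SD (not drawn for Slc51b, and below 0 where the SD exceeds the mean). Empty replicate 2 lies above Empty replicates 1 and 3 in all 9 rows that were tested, and the Abcb4 panel shows a row that cannot be assigned to Abcb4 alone.

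Between Empty and Normal livers, 4 transporters fell (Slc10a1, Slco1a1, Slco1a4 and Abcb11) and 2 rows rose (Abcc3 and the row named Abcb4), among the 9 of 10 that could be tested. Of all genes tested, 11.1% were called lower and 20.7% higher in this comparison, which is 31.8% in either direction, beside 6 of 9 here. The 4 lower calls became 2 without Normal replicate 2, Empty replicate 1 or Empty replicate 3 and 6 without Empty replicate 2, and the 2 higher calls became 1 without Normal replicate 2, Normal replicate 3 or Empty replicate 2. The median log2 fold change was -2.80 over the 4 uptake genes, -1.37 over the 3 canalicular rows and 0.47 over the 2 basolateral genes tested, against 0.04 over all genes. UTOpiA and Normal livers differed in 5 of the 9, with Slco1a1, Slco1a4 and Abcc4 lower and Abcc3 and the Abcb4 row higher, against 6.81% of all genes called lower, 18.2% higher and 25% in either direction. Its 3 lower calls became 1 without UTOpiA replicate 2 and 5 without Empty replicate 2. The 3 values of a group stood wholly apart from the Normal values in 7 of the 9 for Empty and 6 of the 9 for UTOpiA livers in TPM, against 66.3% and 52.4% of all genes, and in 9 and 8 of the 9 after TMM scaling, against 61.1% and 56.9%. In UTOpiA against Normal livers the medians of the same classes were -1.70, -0.87 and 0.38, against 0.05 over all genes. The 2 comparisons share the Normal livers, and the comparison of UTOpiA with Empty livers shares its livers with each of them.

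**Figure D2:**
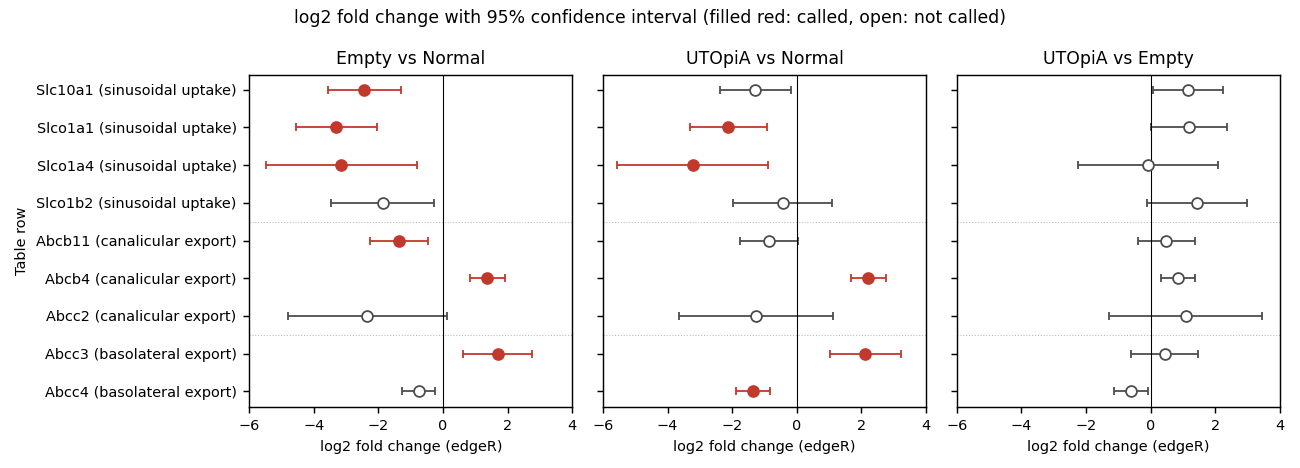
log2 fold change from edgeR (horizontal axes) with its 95% confidence interval for the 9 rows tested, in the 3 comparisons, with filled red points for called rows and open points for the others. Against Normal livers the uptake genes lie left of 0 and Abcc3 and the Abcb4 row lie right of it, whereas between UTOpiA and Empty livers no row is called.

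Slc10a1, the gene of NTCP (ENSRNOG00000005794, chr6:104617730-104631355, minus strand, rn6), stood at 528, 469 and 502 TPM in Normal livers, at 92.9, 221 and 79.3 TPM in Empty livers and at 389.8, 141 and 219 TPM in UTOpiA livers, in the order of replicates 1 to 3. Every ACLF liver lay below every Normal liver, while the Empty and UTOpiA livers overlapped. The fall in Empty livers was -2.44 on the log2 scale (SE 0.50, edgeR adjusted p = 0.00384), or 5.43-fold, and -3.06 without Empty replicate 2. In UTOpiA livers the log2 fold change against Normal was -1.28 (95% interval -2.37 to -0.19, adjusted p = 0.062), which missed the threshold but passed it without Empty replicate 2 (adjusted p = 0.0215) and without UTOpiA replicate 1 (-1.69, adjusted p = 0.0394), as well as with DESeq2 (adjusted p = 0.0156) and with only the 6 libraries compared (adjusted p = 0.0284). UTOpiA livers stood 1.16 above Empty livers (0.07 to 2.25, adjusted p = 0.46), with an unadjusted p of 0.0395.

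Slco1a1 (OATP1A1, ENSRNOG00000036984, chr4:176158640-176231344, minus strand), a sodium-independent carrier of bile acids and steroid conjugates, was at 207, 198 and 259 TPM in Normal livers, at 18.95, 61.6 and 14.8 TPM in Empty livers and at 88.5, 52.2 and 48.95 TPM in UTOpiA livers. The ACLF livers were all below the Normal livers, and Empty replicate 2 lay inside the UTOpiA range. Slco1a1 fell by 3.31 on the log2 scale in Empty livers (SE 0.56, edgeR adjusted p = 0.00154), or 9.90-fold, and the estimate was -4.24 without Empty replicate 2. Its fall in UTOpiA livers was -2.12 (SE 0.53, adjusted p = 0.0128), a call lost without UTOpiA replicate 2 (-1.91, adjusted p = 0.055). The difference between UTOpiA and Empty livers was 1.19 (0.02 to 2.36, adjusted p = 0.478).

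Slco1a4 (OATP1A4, ENSRNOG00000047493, chr4:175969549-176026163, minus strand), a related carrier that also takes up drugs and cardiac glycosides, had 184, 230.2 and 165 TPM in Normal livers, 5.56, 78.8 and 8.02 TPM in Empty livers and 49.95, 20.3 and 9.02 TPM in UTOpiA livers. All 6 ACLF livers were below the Normal range, with the highest value in Empty replicate 2. Slco1a4 fell by 3.15 in Empty livers (SE 1.03, edgeR adjusted p = 0.0321), and its change in UTOpiA livers was -3.23 (SE 1.03, adjusted p = 0.0355). The first call was lost without Normal replicate 1, 2 or 3, Empty replicate 1 or 3 or UTOpiA replicate 2, at adjusted p between 0.0542 and 0.0758, with no count filter (adjusted p = 0.087) and with only the 6 libraries compared (adjusted p = 0.0504), and the estimate was -5.37 without Empty replicate 2. The second was lost without any Normal replicate or without UTOpiA replicate 2 or 3, at adjusted p between 0.0627 and 0.13, and with no count filter (adjusted p = 0.0962), and the estimate was -4.10 without UTOpiA replicate 1. Between UTOpiA and Empty livers the difference was -0.08 with an interval of -2.24 to 2.08 (adjusted p = 0.986), and its sign turned when Empty replicate 2 (2.14), UTOpiA replicate 2 (0.15) or UTOpiA replicate 3 (0.28) was left out.

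Slco1b2 (OATP1B2, ENSRNOG00000030538, chr4:175814118-175881768, plus strand), the liver-specific rodent relative of human OATP1B1 and OATP1B3, read 345.5, 292 and 332.5 TPM in Normal livers, 66.1, 275 and 32.5 TPM in Empty livers and 363, 209.6 and 294 TPM in UTOpiA livers. Empty replicates 1 and 3 were the lowest of the 9 livers, Empty replicate 2 was close under the Normal range, and the UTOpiA livers overlapped both other groups. The estimate for Empty against Normal was -1.87 (-3.46 to -0.29, edgeR adjusted p = 0.0519), short of the threshold, and it was called at -3.21 without Empty replicate 2 (adjusted p = 0.000667), and with DESeq2 (adjusted p = 0.00707) and limma (adjusted p 0.0271 to 0.0273). UTOpiA livers stood at -0.44 against Normal livers (-1.97 to 1.10, adjusted p = 0.639) and at 1.44 against Empty livers (-0.13 to 3.00, adjusted p = 0.515).

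Among the canalicular exporters, Abcb11 (BSEP, ENSRNOG00000050860, chr3:55480024-55587946, minus strand) showed 222, 322 and 252 TPM in Normal livers, 98.9, 245.5 and 95.5 TPM in Empty livers and 246, 164 and 133 TPM in UTOpiA livers. In TPM each ACLF group overlapped the Normal livers, through Empty replicate 2 and UTOpiA replicate 1, whereas after TMM scaling both groups lay below them. Abcb11 fell by 1.37 in Empty livers (SE 0.41, edgeR adjusted p = 0.02), or 2.58-fold. This call was lost without Normal replicate 2 (-1.22), Empty replicate 1 (-1.18) or Empty replicate 3 (-1.10), at adjusted p between 0.0658 and 0.0678, and with limma on log2 TPM (adjusted p 0.05 to 0.0505), and the estimate was -1.98 without Empty replicate 2. In UTOpiA livers the estimates were -0.87 against Normal (-1.77 to 0.03, adjusted p = 0.111) and 0.49 against Empty (-0.40 to 1.39, adjusted p = 0.706), the latter 1.10 without Empty replicate 2 and 0.22 without UTOpiA replicate 1.

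Abcc2 (MRP2, ENSRNOG00000046727, chr1:263554453-263613252, plus strand) was measured at 191, 193 and 285 TPM in Normal livers, at 11.6, 168 and 7.03 TPM in Empty livers and at 197, 80.55 and 72.3 TPM in UTOpiA livers. The highest Empty liver, replicate 2, was 23.9-fold above the lowest, compared with 1.49-fold among Normal and 2.73-fold among UTOpiA livers. With that spread the difference between Empty and Normal livers, -2.34 (SE 1.09, -4.81 to 0.13), was not called (edgeR adjusted p = 0.105), whereas it was called at -5.09 without Empty replicate 2 (adjusted p = 0.000271) and at -3.18 to -3.09 with limma on log2 TPM (adjusted p 0.0232 to 0.0234). UTOpiA livers stood at -1.26 against Normal (-3.65 to 1.13, adjusted p = 0.369), called without Empty replicate 2 (adjusted p = 0.0388) or with only the 6 libraries compared (adjusted p = 0.0394), and at 1.08 against Empty (-1.30 to 3.46, adjusted p = 0.755). The TPM of Abcb11 exceeded that of Abcc2 8.50-fold and 13.6-fold in Empty replicates 1 and 3, against ratios of 0.885 to 1.67 in Normal livers, 1.46 in Empty replicate 2 and 1.25 to 2.04 in UTOpiA livers.

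The row named Abcb4 (ENSRNOG00000008012, chr4:22133521-22425515, minus strand, rn6) cannot be assigned to Abcb4 alone. It extends over 291995 bases, its counts and TPM give a counted length of 14132 bases where the other 9 rows have between 381 and 5988, and it carries the Entrez identifier 170913, which RefSeq gives to Abcb1a. Abcb4, Abcb1b and Abcb1a are neighbours in RefSeq, and the tables have 0 rows named Abcb1a or Abcb1b. Abcb1a and Abcb1b encode P-glycoproteins, drug efflux pumps of the canalicular membrane and of other cells. The row was at 10.1, 8.51 and 9.33 TPM in Normal livers, at 34.3, 39.1 and 30.15 TPM in Empty livers and at 72.7, 56.95 and 34.8 TPM in UTOpiA livers. Both ACLF groups lay wholly above the Normal livers and overlapped each other in UTOpiA replicate 3. It rose by 1.38 in Empty (SE 0.24, edgeR adjusted p = 0.0015) and by 2.21 in UTOpiA livers (SE 0.24, adjusted p = 0.00029). UTOpiA livers stood 0.84 above Empty livers (0.31 to 1.36, unadjusted p = 0.00557, adjusted p = 0.346).

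**Figure D3:**
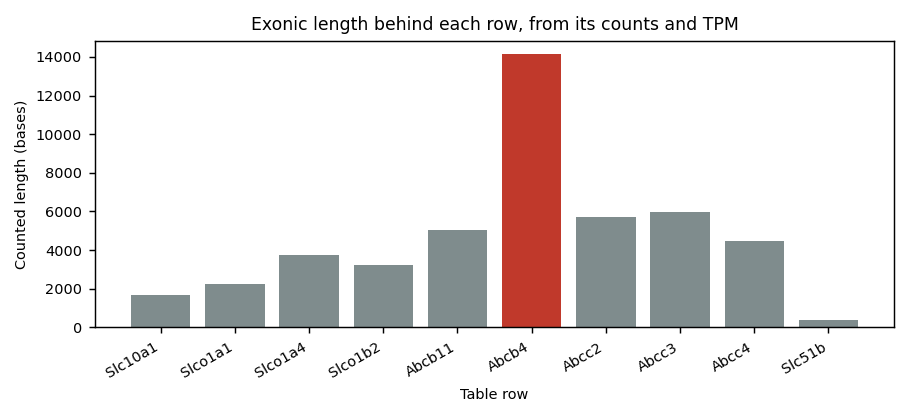
Counted length in bases (vertical axis, from 0) behind each of the 10 rows, derived from the ratio of counts to TPM. The row named Abcb4 (red) has 14132 bases, the others between 381 (Slc51b) and 5988 (Abcc3).

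Of the basolateral exporters, Abcc3 (MRP3, ENSRNOG00000002948, chr10:82047863-82117109, minus strand) was at 4.09, 2.04 and 3.22 TPM in Normal livers, at 9.11, 22.8 and 11.3 TPM in Empty livers and at 23.9, 22.97 and 6.63 TPM in UTOpiA livers. All ACLF livers were above the Normal livers, with the lowest ACLF value in UTOpiA replicate 3. Abcc3 rose by 1.69 in Empty livers (SE 0.48, edgeR adjusted p = 0.0177), or 3.22-fold, and by 2.12 in UTOpiA livers (SE 0.48, adjusted p = 0.00894), or 4.34-fold. The call in Empty livers was lost without Normal replicate 2 (1.44, adjusted p = 0.0628), Normal replicate 3 (1.71, adjusted p = 0.0505) or Empty replicate 2 (1.17, adjusted p = 0.0524). The difference between the ACLF groups was 0.43 (-0.60 to 1.47, adjusted p = 0.776). MRP3 is also made by cholangiocytes, whose markers were called higher in 10 of 11 in both ACLF groups (20.7% and 18.2% of all genes), with median log2 fold changes of 6.14 in Empty and 5.28 in UTOpiA livers, and their part in the rise of Abcc3 was not tested.

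Abcc4 (MRP4, ENSRNOG00000010064, chr15:103696557-103927592, minus strand) read 4.82, 5.54 and 4.455 TPM in Normal livers, 3.34, 4.89 and 4.39 TPM in Empty livers and 2.84, 3.36 and 1.31 TPM in UTOpiA livers. The UTOpiA livers were the lowest apart from Empty replicate 1, which was just under UTOpiA replicate 2, and the Empty livers overlapped the Normal ones. Abcc4 fell by 1.35 in UTOpiA livers (SE 0.24, edgeR adjusted p = 0.00218), or 2.55-fold, but by under 2-fold with limma on log2(TPM + 1) (-0.81, adjusted p = 0.041). In Empty livers the estimate was -0.75 (adjusted p = 0.0224), a change under 2-fold and so not called, and it was -0.20 (adjusted p = 0.555) and -0.24 (adjusted p = 0.591) with limma on log2(TPM + 1) and log2(TPM + 0.1). The UTOpiA livers stood at -0.60 against the Empty livers (-1.12 to -0.08, unadjusted p = 0.029, adjusted p = 0.44). Counts behind these levels were low, between 54 and 211 reads a liver.

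Slc51b (OSTβ, ENSRNOG00000028889, chr8:70930347-70932986, minus strand) had 0 counts in 8 livers and 3 counts (0.937 TPM) in UTOpiA replicate 1, and was not tested. Its row has a counted length of 381 bases and a span of 2640 bases, where RefSeq (GRCr8) gives the gene 8063, and whether the row misses part of the transcript was not tested. A count of 0 allows up to 3 counts in a library, which covers counting error only. Its partner Slc51a (OSTα) had 3, 10 and 10 counts in Normal, 3, 5 and 5 in Empty and 1, 1 and 2 in UTOpiA livers, and did not pass the filter.

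Between UTOpiA and Empty livers, edgeR called 0 of the 9 transporters higher and 0 lower, as it did for 0% of all genes tested, and limma called 0 of them as well. DESeq2, which called 0.884% of all genes with an adjusted p, called 0 of 8 and gave no adjusted p for Abcc2. Its estimate for the Abcb4 row, 0.82, had an adjusted p of 0.046 but was under 2-fold. The study, which also used DESeq2 and this threshold, reported more genes, in both directions, between these groups. Before adjustment, 4 of the 9 were under an edgeR p of 0.05 (Slc10a1, Slco1a1, Abcc4 and the Abcb4 row), against 10.3% of all genes. Estimates were above 0 in 7 of the 9, with medians of 1.17 for uptake, 0.84 for canalicular and -0.08 for basolateral export, against 0.00 over all genes. The canalicular median was the value of the Abcb4 row itself, between Abcb11 (0.49) and Abcc2 (1.08). The TPM of the 2 groups overlapped in all 10 rows, while 11% of all genes showed no overlap, and after TMM scaling 2 of the 9 (Abcc4 and the Abcb4 row) did not overlap, against 12.1%. Empty replicate 2 decided the calls: without it, Slco1a1 (2.11, edgeR adjusted p = 0.0455), Slco1b2 (2.77, adjusted p = 0.0478) and Abcc2 (3.83, adjusted p = 0.0455) were called higher in UTOpiA livers, and 0 were called lower, where the same fit called 0.181% of all genes higher and 0.153% lower. In that liver Alb stood at 33610 TPM, against 13850 and 12840 in Empty replicates 1 and 3, and the other 9 hepatocyte markers summed to 25800 TPM, against 21600 and 19900. It was the highest Empty liver in 8 of the 10 hepatocyte markers, the lowest in 1 (Serpina1) and between the others in 1 (F9), both named after their values were seen. The 8 neutrophil markers summed to 187 TPM in it, against 549 and 1120, with 5 of the 8 lowest there. The 6 endothelial markers were all highest there among Empty livers (139 TPM summed, against 82.9 and 66.4). Of the 8 macrophage markers, 5 were lowest there (883 TPM summed, against 1180 and 759) and 1 was highest. That 1 was Clec4f (228 TPM, against 32.7 and 14.3), named after its values were seen. Markers of stellate cells and fibroblasts summed to 868 TPM there, against 604 and 629, and erythroid and platelet markers to 3230 TPM, against 2190 and 2560. Cholangiocyte markers summed to 602 TPM, against 427 and 925. The part of these markers in the result was not tested.

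**Figure D4:**
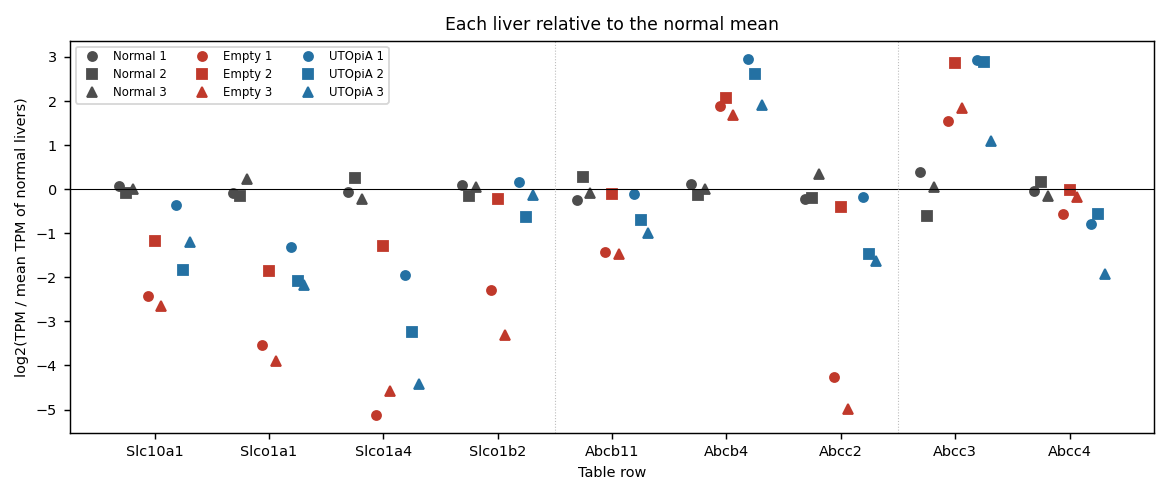
TPM of each liver divided by the mean of the Normal livers, on a log2 scale (vertical axis), for the 9 rows tested, with grey, red and blue for Normal, Empty and UTOpiA livers and circles, squares and triangles for replicates 1, 2 and 3. For Abcc2, Empty replicates 1 and 3 (11.6 and 7.03 TPM) lie far below the other 7 livers, among them Empty replicate 2 (168 TPM).

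Summed over the 4 uptake genes, the level was 1265, 1189 and 1258 TPM in Normal livers, 183.5, 636 and 135 TPM in Empty livers and 892, 423 and 571.5 TPM in UTOpiA livers. The sum of Abcb11 and Abcc2 was 414, 515 and 537 TPM in Normal, 111, 414 and 102.5 TPM in Empty and 443.5, 244.5 and 205 TPM in UTOpiA livers. UTOpiA replicate 1 and Empty replicate 2 were the highest ACLF livers in both sums, and Empty replicates 1 and 3 were the lowest. Uptake exceeded Abcb11 and Abcc2 together 2.31- to 3.06-fold in Normal livers, 1.31- to 1.66-fold in Empty livers and 1.73- to 2.79-fold in UTOpiA livers. The basolateral sum itself was 8.92, 7.58 and 7.67 TPM in Normal, 12.45, 27.7 and 15.65 TPM in Empty and 27.7, 26.3 and 7.94 TPM in UTOpiA livers, so that UTOpiA replicate 3 lay within the Normal range. It was 0.61% to 0.705% of the uptake sum in Normal livers, 4.35% to 11.6% in Empty livers and 1.39% to 6.23% in UTOpiA livers. Neither ACLF range of this share reached the Normal range, and the ACLF ranges overlapped.

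Other hepatic transporters of bile acids, organic ions and biliary lipids, 13 of 21 listed being testable, included 3 called higher and 7 called lower in Empty than in Normal livers, with a median log2 fold change of -1.07, against 20.7% and 11.1% of all genes. Slc10a2, the sodium-dependent bile acid transporter of cholangiocytes and ileum, rose by 2.42, from 1.08 ± 0.35 to 8.24 ± 7.14 TPM (SD, n = 3, edgeR adjusted p = 0.0226). Abcc1 and Abcc5, of the same ABC subfamily as the MRP exporters above, rose by 2.40 (adjusted p = 0.00258) and 2.34 (adjusted p = 0.000604). Slco2a1, a prostaglandin transporter, fell by 2.29 from 160 ± 23.6 to 46.4 ± 23.96 TPM (adjusted p = 0.00502). In UTOpiA livers 2 of the 13 were higher and 1 lower than in Normal livers (median -0.74, against 18.2% and 6.81% of all genes), and 0 differed between UTOpiA and Empty livers, where the median was 0.40.

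Of 10 testable genes that anchor or deliver transporters at the canalicular membrane, 2 rose and 2 fell in Empty livers, against 20.7% and 11.1% of all genes. Ezr, the linker protein ezrin that is abundant in cholangiocytes, rose by 3.31 (edgeR adjusted p = 0.000772) and Stx3, a syntaxin of apical membrane fusion, by 1.94 (adjusted p = 8.78e-05). Pdzk1, a scaffold protein, fell by 1.34 (adjusted p = 0.0141) and Rdx, encoding radixin, which tethers MRP2 to the canalicular membrane, fell by 1.17 (adjusted p = 0.000994). UTOpiA livers had 2 of the 10 called higher and 0 lower against Normal (all genes 18.2% and 6.81%), and 0 called against Empty.

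Among 13 transcription factors known to act on bile acid transporter genes, 0 rose and 5 fell in Empty livers, with a median of -0.95, while 20.7% of all genes rose and 11.1% fell. Of the 5 called, the 4 with the greatest change were Foxa2 (-1.59), Nr1h4 (-1.55), which encodes the bile acid receptor FXR, Rxra (-1.49), the partner of many nuclear receptors, and Hnf4a (-1.22), at edgeR adjusted p of 0.00513, 0.00149, 0.00208 and 0.00511. Their mean TPM in Normal and Empty livers were 31.1 ± 13.2 and 14.9 ± 5.56 for Foxa2, 51.9 ± 3.71 and 25.4 ± 5.55 for Nr1h4, 158.5 ± 7.61 and 79.9 ± 23.3 for Rxra and 173 ± 6.65 and 106 ± 20.3 for Hnf4a (SD, n = 3). Empty replicate 2, the highest Empty liver in the uptake genes, was the lowest Empty liver in each of these 4, at 10.1, 19.3, 60.8 and 84.1 TPM. Over all 13 it was the lowest Empty liver in 9 and the highest in 4, among them Nr0b2, the FXR target that encodes SHP, at 47.98 TPM against 5.33 and 5.84 in Empty replicates 1 and 3, a gene named after its values were seen. In UTOpiA livers 0 of the 13 were higher and 2 lower than in Normal livers (all genes 18.2% and 6.81%), and 0 differed from Empty livers.

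The genes whose pattern over the 9 livers lay nearest to that of 1 transporter of each class were sought among 12857 genes with a mean of at least 1 TPM. The distance was the root mean square difference of log2(TPM + 1), with each gene centred on its own mean in Normal livers. Outside the transporters followed here, the nearest to Slc10a1 were Bhmt2 (0.196), Slco2a1 (0.196) and Ndrg2 (0.215). Among those followed here, the nearest was Slco1b2 at 0.679. For Abcb11 the nearest outside genes were Abtb2 (0.157), Gas2 (0.168) and Acsl4 (0.182), with Abcc4 nearest among the transporters followed here at 0.596. For Abcc4 the nearest outside genes were Pus7 (0.136), Cmss1 (0.154) and Pitrm1 (0.157). These distances are descriptions over 9 livers that also differ in group.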

How the data were processed

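Poly(A) RNA of 9 rat livers was sequenced. The authors aligned reads with HISAT2 2.0.1, counted uniquely mapped reads with featureCounts 2.6.0 and deposited raw counts and TPM. The labels name Trimmomatic, an NEBNext kit and rn6, whereas the methods name Cutadapt 1.9.1, an MGIEasy kit and the mouse build GRCm38. The strand setting is not given in the sources used here. Positions are those of the tables, named rn6 after the labels, and were not compared with the GRCr8 windows from RefSeq. TPM follow the deposited scaling by length and library total.

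Counts were fitted with edgeR 4.0.16 in R 4.3.3 (all 9 libraries, filterByExpr, TMM, robust quasi-likelihood, two-sided, Benjamini-Hochberg over 14089 genes), called at adjusted p under 0.05 and fold above 2. Each edgeR p-value tests a difference between group means against the spread between livers, estimated over all groups and moderated across genes. Two-sided exact permutation tests of each gene's TPM cannot go below 0.1 with 3 against 3, and no p in the text rests on them. Scripts were tested on simulated data. Each 95% interval is that of the edgeR estimate. Counted lengths came from counts and TPM, scaled in each library to the median span of 30 to 46 small-RNA rows. Their median match was therefore fixed in advance, so the match of these rows within 1% is not an independent check.

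Alternatives were DESeq2 1.42.0, limma 3.58.1 on log2(TPM + 1) and log2(TPM + 0.1) with mean TPM of at least 1, median-of-ratios scaling, other count filters (none, or at least 10 in every library), no fold threshold, only the 6 libraries compared, a replicate block and each library left out. The members, lists, classes and named-gene rule (all 10 transporters, up to 4 called genes a list by size in Empty livers, 3 genes nearest in pattern) were chosen with earlier results of these data known. Authors' fold changes were not used.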

Additional observations from a re-analysis of the deposited data

How the results depend on the processing

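Of 483 recomputed values for single transporters (9 tested, 3 comparisons, 18 alternatives, leaving out 3 for Abcc2, to which DESeq2 gave no adjusted p), 436 kept their direction and their side of the threshold, 24 lost a call, 17 gained one and 6 turned direction. All 6 concerned Slco1a4 between UTOpiA and Empty livers, at -0.08 in the reported fit, 0.40 with limma on log2(TPM + 1), 0.45 on log2(TPM + 0.1), 0.50 with the replicate block and -0.94 to 2.14 with a library left out, and the cause was not tested. The number of transporters called lower in UTOpiA than in Normal livers was 3, and 5 with only the 6 libraries compared. With a library left out it was 1 to 5, the number called lower in Empty than in Normal livers 2 to 6 (reported 4), higher in Empty livers 1 to 2 (reported 2) and higher in UTOpiA than in Empty livers 0 to 3 (reported 0). Where a group is left with 2 libraries, the others share its estimate of spread. Median-of-ratios scaling moved the median of all genes by at most 0.02 and turned the direction of no transporter.

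The labels name no pairing by replicate number. Deviations of same-numbered Empty and UTOpiA livers correlated at -0.183 to -0.144 and those with Normal livers at -0.0199 to 0.0638. Differently numbered livers gave -0.186 to 0.288. With so few livers, each centred on its group mean, these values cannot decide whether livers were paired. The replicate block left all counts as reported, with 2 higher and 4 lower in Empty and 2 higher and 3 lower in UTOpiA against Normal livers and 0 between UTOpiA and Empty livers. Slc51b and Slc51a did not pass the count filter at this depth.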
